A study of Mus musculus with 12 samples.

Results

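The Gimap genes (GTPases of immunity-associated proteins) formed a group of 8 rows in a count table of 21638 mouse genes: Gimap8, Gimap9, Gimap4, Gimap6, Gimap7, Gimap1, Gimap5 and Gimap3, in their order along chromosome 6. They were chosen by name and position, and because they stood out in earlier results from the same libraries, so their differences between genotypes are given as a description. Of the 8 genes, 7 were among the 12577 that passed a filter on low counts (mean of 10 or more per library). Gimap7 did not pass and was not tested.

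GIMAP proteins are small GTP-binding proteins that sit on intracellular membranes, and they are best known from lymphocytes, where they affect survival and development. The family lies as one gene cluster in mammals. Several members have also been found in endothelial cells, but what they do there is less well known than their part in T and B cells.

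The libraries came from cortical endothelial cells of adult mouse brain, sorted by flow cytometry as positive for the endothelial antigen CD31 and negative for the platelet antigen CD41 and the leukocyte antigen CD45. There were 4 groups of 3 libraries. WT was the reference group. The Hdac2 ECKO group came from Hdac2lox/lox:Cdh5CreERT2 mice and lacked, by label, the histone deacetylase Hdac2 in endothelium. The Ezh2 ECKO group came from Ezh2lox/lox:Cdh5CreERT2 mice and was meant to lack Ezh2, the histone H3 lysine methyltransferase of Polycomb repressive complex PRC2. The beta-catenin GOF group came from Ctnnb1lox/lox:Cdh5CreERT2 mice, in which beta-catenin, the effector of canonical Wnt signalling, was, by label, made constitutively active. Cdh5CreERT2 is a tamoxifen-dependent recombinase driven by the VE-cadherin gene, so it acts in endothelium of all organs and not in brain alone. Mutant mice received 5 doses of tamoxifen at 75 mg per kg, and brains were taken 2 months later. Whether WT mice carried the recombinase or received tamoxifen is not given in the sources used here, and the exact age of the mice is not given either.

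Total counts ran from 24781070 to 36109975 per library, and 13922 to 17091 genes had a count above 0. Ezh2 itself was at 8.88, 2.69 and 8.69 counts per 1000000 (CPM, scaled by the trimmed mean of M-values, TMM) in WT, while the Ezh2 ECKO libraries held 9.85, 5.19 and 11.7 CPM. The level of Ezh2 therefore goes against that label, so these are named the Ezh2-labelled libraries from here on, and gene-level counts do not resolve a recombined exon. Hdac2 was at 163, 122 and 104 CPM in WT against 82.2, 95.0 and 112 CPM in Hdac2 ECKO, with overlapping values. It was as low in beta-catenin GOF, at 88.6, 92.3 and 108 CPM. The level of Hdac2 therefore does not mark out the Hdac2 ECKO libraries, and that name is used below as the labels give it. Ctnnb1, the beta-catenin gene, was at 546, 608 and 809 CPM in WT and 696, 576 and 478 CPM in beta-catenin GOF, with overlapping values. Hdac2 ECKO held 1303, 845 and 1324 CPM and the Ezh2-labelled libraries 1303, 754 and 1248 CPM, both above beta-catenin GOF without overlap. These counts do not measure the activity of the protein. On the first principal component of all tested genes (29.3% of the variance), replicate 2 of Hdac2 ECKO (9.30) and replicate 2 of the Ezh2-labelled group (−33.2) lay apart from the other libraries of their groups (58.3 and 84.3, and 47.7 and 53.7), on the side of WT (−66.5 to −26.3). The labels do not say that replicates came from separate mice, so a p-value here measures only the spread between these libraries, which may be technical.

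The genes spanned 123.618 kb of chromosome 6, from 48647234 to 48770851 (GRCm38, the build of mm10). The near end lay 1051.89 kb from Ezh2, which occupies 47530139 to 47595341 on the minus strand. The distance is given because the Ezh2-labelled libraries carry a lox-flanked allele at that neighbouring locus. Gimap8, Gimap9, Gimap4, Gimap7, Gimap1 and Gimap5 are transcribed from the plus strand, and Gimap6 and Gimap3 from the minus strand.

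All 8 members matched a RefSeq entry by symbol, with 9 promoter windows between them, because Gimap8 has 2 annotated starts. The 250 bases before the annotated start are shown for the 3 members that the comparisons below turn on, Gimap8 (its first start), Gimap4 and Gimap1. They are RefSeq sequences of GRCm38.p6, 5′ to 3′ on the strand of the gene, with capitals at matches to the core of the ETS family of transcription factors (AGGAAG or CGGAAG, on either strand).
Gimap8, chr6:48646984-48647233, plus strand: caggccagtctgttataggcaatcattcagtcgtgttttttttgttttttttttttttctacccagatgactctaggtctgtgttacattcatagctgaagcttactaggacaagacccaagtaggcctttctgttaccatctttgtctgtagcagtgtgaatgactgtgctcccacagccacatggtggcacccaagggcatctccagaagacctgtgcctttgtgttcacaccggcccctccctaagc
Gimap4, chr6:48684328-48684577, plus strand: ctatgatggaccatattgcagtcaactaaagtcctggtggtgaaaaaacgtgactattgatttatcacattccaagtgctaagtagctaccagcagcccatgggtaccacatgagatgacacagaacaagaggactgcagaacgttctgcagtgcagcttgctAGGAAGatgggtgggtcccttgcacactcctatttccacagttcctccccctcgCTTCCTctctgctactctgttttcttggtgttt
Gimap1, chr6:48738797-48739046, plus strand: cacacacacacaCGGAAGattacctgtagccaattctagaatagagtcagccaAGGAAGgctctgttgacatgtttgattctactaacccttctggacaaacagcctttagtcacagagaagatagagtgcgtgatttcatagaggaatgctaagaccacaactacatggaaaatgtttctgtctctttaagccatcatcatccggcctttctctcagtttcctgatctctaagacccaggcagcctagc

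The Gimap4 and Gimap1 windows held 2 ETS cores each, and the first Gimap8 window held none. The window of the second Gimap8 start, which is not shown, also held 2. Over all members, 8 of 9 windows held an ETS core, against 39.2% of 32851 promoter windows of the same length. ETS factors are transcription factors that are abundant in both endothelium and lymphocytes. The TCF/LEF core (CTTTGA or CTTTGT, both strands), the site of the partners of beta-catenin, was found in 3 of 9 windows, against 27.6% of all windows. Both Gimap8 windows, which overlap each other, held 2 CTTTGT matches each, and Gimap3 held 1. A GATA core (AGATAA or TGATAA, both strands) was in 1 of 9 windows, that of Gimap4, and in 16.6% of all. A KLF core (CCACACCC or CCGCCC, both strands) was in 2 of 9 windows, those of Gimap9 and Gimap7, and in 34.7% of all. These are matches of letters in short windows, with no data on binding.

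Levels of different genes were compared as CPM per kb of exon. In WT, Gimap6 was the highest member at 81.3 CPM per kb, followed by Gimap9 (44.4), Gimap1 (27.9), Gimap4 (11.6), Gimap5 (8.74) and Gimap8 (6.49). Gimap3 (0.266) and Gimap7 (0.0102) were far below these. Neighbours in that order were not always separated: in WT the range of Gimap6 (52.1 to 117) did not meet that of Gimap9 (38.7 to 48.0), while the ranges of Gimap5 (7.95 to 9.74) and Gimap8 (5.10 to 8.97) overlapped. Gimap6 made up 51.2% to 52.7% of the summed Gimap CPM, as a group mean, in each of the 4 groups. The libraries of sorted cells thus held appreciable Gimap6, Gimap9 and Gimap1 RNA and hardly any Gimap7 RNA. In RNA from bulk sorted cells, a lower level from fewer cells of a type and one from less RNA per cell cannot be told apart.

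**Figure D1:**
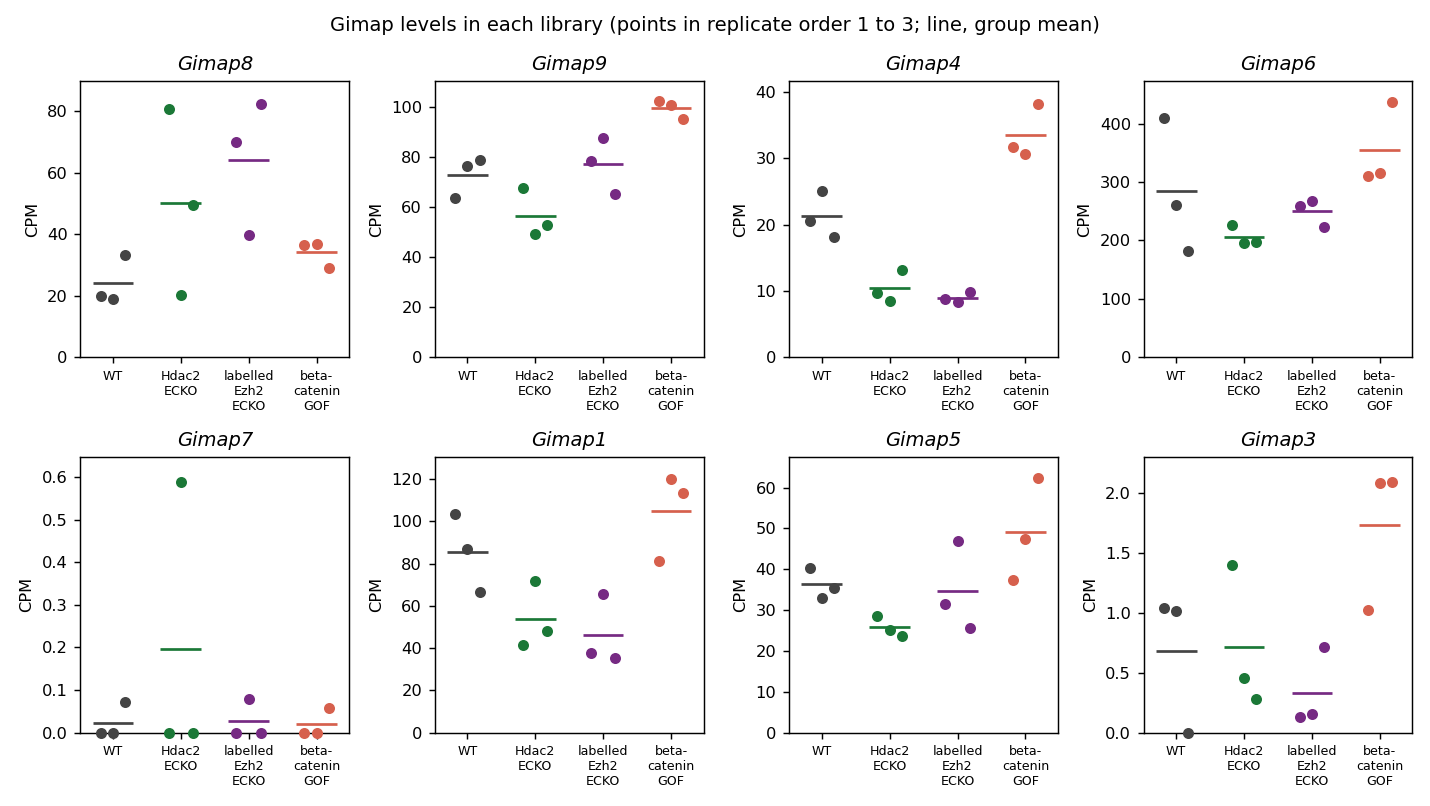
TMM-scaled CPM (y axis, from 0, a separate scale for each gene) of the 8 Gimap genes in each of the 12 libraries, by group (x axis); points are libraries in replicate order and lines are group means. Gimap4 is at 8.34 to 13.2 CPM in the 6 libraries labelled ECKO and at 18.1 to 38.2 CPM in the other 6, while Gimap8 reaches 82.4 CPM in an Ezh2-labelled library.

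Gimap4, which promotes the death of activated T cells, showed the clearest separation of groups among the members. It lies at 48684549 to 48692060 (ENSMUSG00000054435) and had 1837 bases of exon. Its levels were 20.6, 25.1 and 18.1 CPM in WT (21.3 ± 3.54, SD, n = 3). The Hdac2 ECKO libraries held 9.73, 8.52 and 13.2 CPM (10.5 ± 2.44, SD, n = 3), and the Ezh2-labelled ones 8.75, 8.34 and 9.77 CPM (8.96 ± 0.736, SD, n = 3). All 6 of these libraries lay below all 3 WT libraries.

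In beta-catenin GOF, Gimap4 was at 31.8, 30.7 and 38.2 CPM (33.6 ± 4.08, SD, n = 3), above every other library. In edgeR's quasi-likelihood test over 12577 genes with Benjamini-Hochberg adjustment, the log2 fold change against WT was −1.02 (SE 0.27, adjusted p = 0.0381) in Hdac2 ECKO and −1.25 (SE 0.27, adjusted p = 0.0476) in the Ezh2-labelled libraries. Gimap4 was the 1 member of 7 called in each, where 5.38% and 0.684% of all genes were called lower. Nothing is read from these calls, since the members were chosen with such values known.

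The calls for Gimap4 against WT depended on single libraries. In Hdac2 ECKO against WT the adjusted p of edgeR's test was 0.130 without WT replicate 1, 0.115 without WT replicate 2, 0.162 without Hdac2 ECKO replicate 1 and 0.130 without Hdac2 ECKO replicate 3. For the Ezh2-labelled libraries it was 0.142 and 0.156 without WT replicates 1 and 2, and 0.160 and 0.126 without replicates 1 and 3 of the mutant group. Without replicate 2 of the mutant group, the library that lay toward WT, it was 0.0452 and 0.0168. The direction was the same in all of these fits. Leaving out WT replicate 1 or 2, or mutant replicate 1 or 3, left few calls over all genes. These were at most 0.00798% of all genes in Hdac2 ECKO and 0.0557% in the Ezh2-labelled libraries.

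The difference for Gimap4 was also smaller after a trend on gene length had been removed from each library. Long genes tended to be higher than short ones in the mutant libraries, with a Spearman rho between log2 fold change and length over all tested genes, which are not independent replicates, of 0.44 in Hdac2 ECKO, 0.29 in the Ezh2-labelled libraries and 0.14 in beta-catenin GOF. With the trend removed, the log2 fold change of Gimap4 in edgeR's test was −0.39 (adjusted p = 0.437) in Hdac2 ECKO and −0.83 (adjusted p = 0.123) in the Ezh2-labelled libraries, so neither was called. Against WT, the log2 fold change in beta-catenin GOF was 0.66 (SE 0.26, adjusted p = 0.772), and the groups did not overlap. In direct comparisons of the mutants, beta-catenin GOF was 1.68 (SE 0.27, adjusted p = 0.0328) above Hdac2 ECKO and 1.91 (SE 0.27, adjusted p = 0.0128) above the Ezh2-labelled libraries on the log2 scale. In these comparisons 0.0477% and 0.0239% of all genes were called higher, and with the length trend removed the adjusted p-values were 0.211 and 0.0976.

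**Figure D2:**
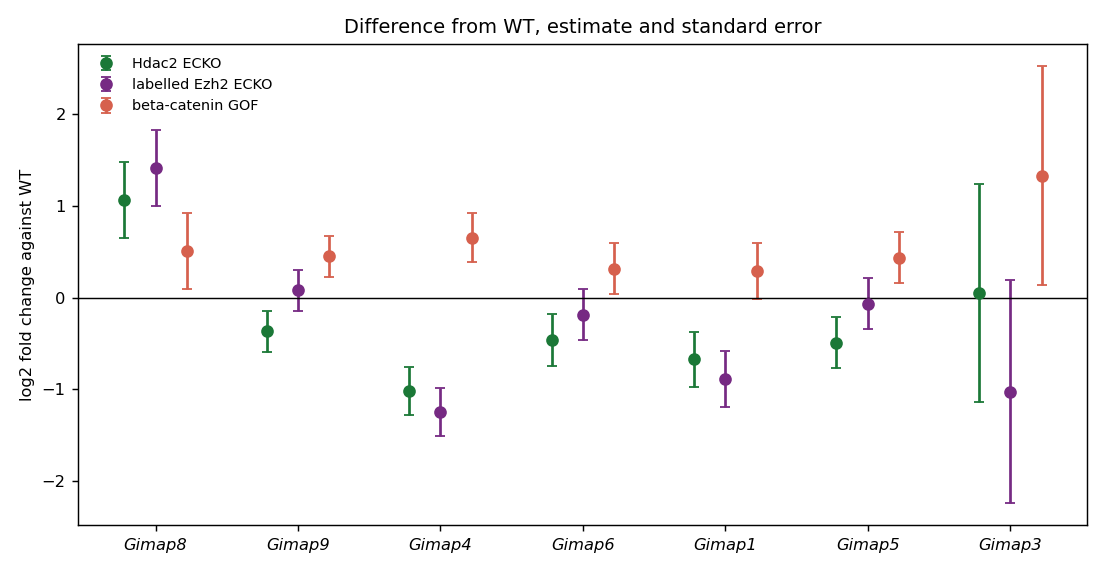
Log2 fold change against WT (y axis) of the 7 tested Gimap genes (x axis) in the 3 mutant groups; points are edgeR estimates and bars are standard errors. Gimap4 lies at −1.02 and −1.25 in the 2 groups labelled ECKO, Gimap8 at 1.06 and 1.42, and all 7 genes are above 0 in beta-catenin GOF.

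Gimap8, the longest GIMAP protein, with several GTP-binding domains, was higher, not lower, on average than WT in both groups labelled ECKO. It lies at 48647234 to 48660875 (ENSMUSG00000064262), nearest of the 8 to Ezh2. WT libraries held 20.0, 18.9 and 33.2 CPM, and Hdac2 ECKO libraries 80.7, 20.1 and 49.7 CPM. In the Ezh2-labelled libraries they were 70.1, 39.6 and 82.4 CPM, all above WT, and in beta-catenin GOF 36.6, 36.9 and 29.0 CPM. The Hdac2 ECKO libraries overlapped WT through replicate 2, the library that lay toward WT on the first component.

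The log2 fold change of Gimap8 against WT was 1.06 (SE 0.42, adjusted p = 0.0963 in edgeR's test) in Hdac2 ECKO and 1.42 (SE 0.42, adjusted p = 0.0788) in the Ezh2-labelled libraries. Neither was called. With the length trend removed the values were 1.20 and 1.57. In beta-catenin GOF it was 0.51 (SE 0.41).

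Within each library, the count of Gimap8 relative to Gimap4 does not depend on library scaling. That ratio was 0.970, 0.752 and 1.83 in WT and 1.15, 1.20 and 0.758 in beta-catenin GOF. It was 8.29, 2.36 and 3.76 in Hdac2 ECKO and 8.01, 4.75 and 8.44 in the Ezh2-labelled libraries. All 6 libraries labelled ECKO thus lay above all 6 others, although the genes and the ratio were picked after their values had been seen, so this order is a description. Gimap8 has 3700 bases of exon against 1837 in Gimap4. With the length trend removed, the estimates against WT in both groups were above 0 for Gimap8 and below 0 for Gimap4, none called. The part of gene length in this ratio was not tested.

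**Figure D3:**
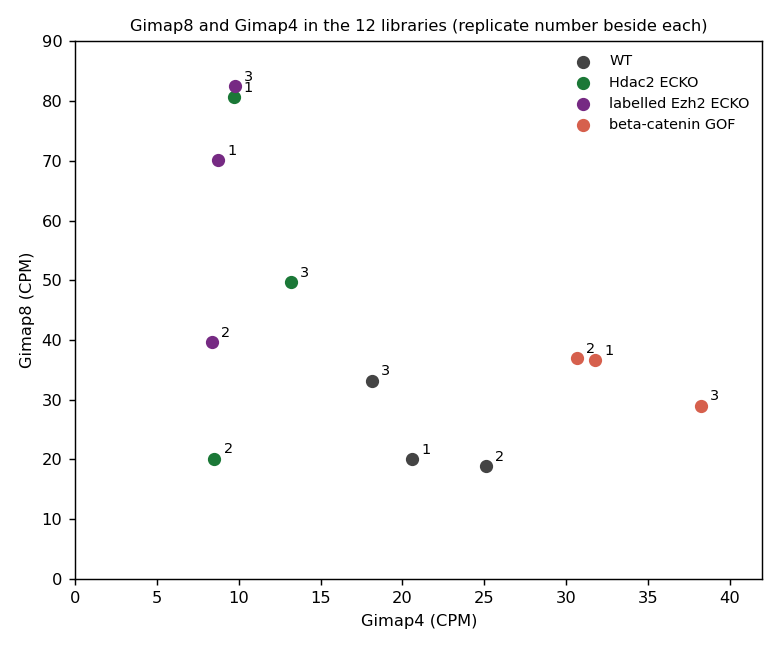
Gimap8 (y axis, CPM) against Gimap4 (x axis, CPM) in the 12 libraries, coloured by group, with the replicate number beside each point. The 6 libraries labelled ECKO lie at the left, at 8.34 to 13.2 CPM of Gimap4, and the 3 beta-catenin GOF libraries at the right, at 30.7 to 38.2 CPM.

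Gimap1, needed for the survival of mature T and B cells, was the other member below WT without overlap in the Ezh2-labelled libraries. It lies at 48739054 to 48743795 (ENSMUSG00000090019). Its levels were 104, 87.0 and 66.5 CPM in WT, against 41.5, 71.6 and 47.9 CPM in Hdac2 ECKO. The Ezh2-labelled libraries held 37.8, 65.5 and 35.5 CPM, and the beta-catenin GOF libraries 81.1, 120 and 113 CPM. The Ezh2-labelled libraries all lay below WT, by a narrow margin at replicate 2, and Hdac2 ECKO overlapped WT. The log2 fold changes against WT were −0.67 (SE 0.30), −0.89 (SE 0.30) and 0.29 (SE 0.30), none of them called by edgeR's test. Of the exon bases of Gimap1, 36.0% are shared with the opposite-strand gene Gimap1os, which has no row in the table used here, so without strand information reads from the pair cannot be told apart. The locus Gm28053, on the same strand, shares 6.44% of the exon bases of Gimap1, 3.69% of those of Gimap5 and 3.48% of those of Gimap7.

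Gimap5, the family member whose loss causes lymphopenia in rodents, lies at 48746197 to 48754210 (ENSMUSG00000043505). It was at 40.4, 33.0 and 35.5 CPM in WT, against 28.5, 25.1 and 23.8 CPM in Hdac2 ECKO. The Ezh2-labelled libraries held 31.5, 46.9 and 25.5 CPM, and the beta-catenin GOF libraries 37.5, 47.4 and 62.4 CPM. The Hdac2 ECKO libraries lay below WT without overlap, at a log2 fold change of −0.49 (SE 0.28), and the Ezh2-labelled libraries spanned the WT range, at −0.07 (SE 0.28). Neither was called by edgeR's test.

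Gimap3, the close mitochondrial relative of Gimap5 in mice, lies at 48764464 to 48770851 (ENSMUSG00000039264) and was near the limit of detection. Its counts were 30, 32 and 0 in WT, against 37, 14 and 8 in Hdac2 ECKO. The Ezh2-labelled libraries held 4, 4 and 20, and the beta-catenin GOF libraries 30, 79 and 72. All 3 mutant groups overlapped WT, and the beta-catenin GOF libraries lay above the Ezh2-labelled ones without overlap. A count of 0 in a library still allows up to 3 counts, which is 0.0792 to 0.118 CPM at these depths, counting error only. Of 50-base windows in Gimap3 transcripts, 7.52% also occur in Gimap5, so the authors' counting could have placed some reads in the wrong member.

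Gimap6, which binds Atg8-family proteins of the autophagy pathway, lies at 48701582 to 48708225 (ENSMUSG00000047867). It was at 410, 261 and 182 CPM in WT, against 226, 195 and 198 CPM in Hdac2 ECKO. The Ezh2-labelled libraries held 259, 267 and 223 CPM, and the beta-catenin GOF libraries 310, 315 and 438 CPM. Replicate 1 of WT was far above the other WT libraries, and all 3 mutant groups overlapped WT. The log2 fold changes were −0.46, −0.19 and 0.32, each with an SE of 0.28.

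Gimap9 lies at 48676129 to 48679114 (ENSMUSG00000051124), between Gimap8 and Gimap4. It was at 63.6, 76.3 and 78.8 CPM in WT, against 67.8, 49.2 and 52.7 CPM in Hdac2 ECKO. The Ezh2-labelled libraries held 78.6, 87.6 and 65.2 CPM, and the beta-catenin GOF libraries 103, 101 and 95.3 CPM. Only the beta-catenin GOF libraries lay apart from WT, all above it, at a log2 fold change of 0.45 (SE 0.22, adjusted p = 0.841 in edgeR's test). In Hdac2 ECKO the log2 fold change was −0.37, and with the length trend removed it was 0.24, of opposite sign. Gimap7, a GTPase that dimerizes with itself and activates other members, lies at 48718621 to 48724636 (ENSMUSG00000043931) and had a count of 0 in 8 libraries, 2 counts in each of 3 libraries and 18 counts in replicate 2 of Hdac2 ECKO. It was not tested.

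Across the members, 5 of 7 were lower than WT in Hdac2 ECKO (median log2 fold change −0.46, and 0.10 over all tested genes), and 5 of 7 were lower in the Ezh2-labelled libraries, with a median of −0.19 against 0.05. In beta-catenin GOF 7 of 7 were higher, with a median of 0.45 against 0.01, yet 0 of 7 and 0% of all genes passed the threshold, and 1 of 7 and 6.07% of all genes had an unadjusted p under 0.05. DESeq2 and limma also called 0 of 7, where they called 0.302% and 0.0557% of all genes. These comparisons share the WT libraries, so they are not independent of each other. Groups that did not overlap were found for 2 members lower in Hdac2 ECKO (18.2% of all genes), 2 lower and 1 higher in the Ezh2-labelled libraries (10.9% and 11.1% of all genes) and 2 higher in beta-catenin GOF (6.83% of all genes).

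Set against each other, beta-catenin GOF was higher than Hdac2 ECKO for 6 of 7 members, 5 of them without overlap (16.1% of all genes), and the median log2 difference was 0.93 against −0.07 over all genes. Against the Ezh2-labelled libraries, 5 members were higher without overlap and Gimap8 was lower without overlap, where 7.97% and 8.67% of all genes did so. Between Hdac2 ECKO and the Ezh2-labelled libraries, 0 of 7 members and 0.0239% of all genes passed edgeR's test. Its unadjusted p was under 0.05 for 0 of 7 and 8.19% of all genes. DESeq2 and limma called 0 of 7, where they called 0.779% and 0.0875% of all genes. Every member overlapped, where 13.2% of all genes did not.

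Over the 12 libraries, log2 CPM of the members other than Gimap8 correlated positively in all 15 pairs, with Pearson r from 0.21 to 0.79. For the 6 pairs with Gimap8, r ran from −0.80, with Gimap1, to 0.02, with Gimap9. The libraries share 4 genotypes, one sort and differences in length trend, so these values are a description. Correlation with the first component of all genes was −0.85 for Gimap1 and 0.83 for Gimap8, and it was −0.66 for Gimap5, −0.61 for Gimap4, −0.54 for Gimap6, −0.41 for Gimap9 and −0.12 for Gimap3. Gimap1 and Gimap8 thus lay closest to the main axis of difference among the libraries, with opposite signs, and Gimap3 hardly followed it.

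The 5 genes whose pattern was most like the mean of the 7 tested members over the 12 libraries were Slc38a5 (r = 0.86), an amino acid transporter of brain endothelium, Ltc4s (0.84), the leukotriene C4 synthase, Gng12 (0.84), a G protein gamma subunit, Aspscr1 (0.84), which tethers glucose transporter vesicles, and Sparc (0.83), a matrix glycoprotein. Slc38a5 was at 224 ± 103 CPM in WT, 108 ± 14.4 in Hdac2 ECKO, 169 ± 77.6 in the Ezh2-labelled libraries and 289 ± 70.8 in beta-catenin GOF (SD, n = 3 each). For Gimap8 alone, a comparison chosen after its opposite direction was seen, the most alike was Cstf3 (r = 0.95), a subunit of the cleavage stimulation factor that acts in polyadenylation, followed by Gna13, Nxpe2, Hace1 and Xiap (each 0.94).

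The surroundings of the cluster were examined because Ezh2 lies on the same chromosome. Between Ezh2 and the Gimap genes and within 1000 kb of either end of the cluster lay 33 other genes, of which 23 were tested, 14 of them between Ezh2 and the cluster. Against WT, edgeR called 2 of 23 higher in Hdac2 ECKO (3.82% of all genes), 0 in the Ezh2-labelled libraries (1.03% of all genes in either direction) and 0 in beta-catenin GOF. The 2 genes were Zfp398, a zinc finger protein, with a log2 fold change of 1.14 (adjusted p = 0.0466), and Tra2a, a splicing regulator, with 1.32 (adjusted p = 0.0456).

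The nearest tested genes on the Ezh2 side, the zinc finger genes Zfp775 and Repin1, had log2 fold changes of −0.36 and 0.70 in Hdac2 ECKO and −1.47 and 0.79 in the Ezh2-labelled libraries, none called. On the far side, Tmem176b, a membrane protein known from immune cells, was at 106 ± 7.39 CPM in WT, 62.6 ± 19.5 in Hdac2 ECKO, 55.6 ± 18.9 in the Ezh2-labelled libraries and 176 ± 104 in beta-catenin GOF (SD, n = 3 each). Its 2 groups labelled ECKO did not overlap WT, and neither was called. Its partner Tmem176a had log2 fold changes of −0.46, −0.19 and 1.33 in the 3 mutant groups, in the same order. Gm28053, which lies among the Gimap genes and shares exon bases with some, was at 15.4 ± 4.21 CPM in WT. It was at 8.35 ± 1.77 in Hdac2 ECKO, 8.15 ± 3.64 in the Ezh2-labelled libraries and 19.5 ± 4.55 in beta-catenin GOF (SD, n = 3 each). Hdac2 ECKO lay below WT without overlap, and no comparison was called. Its pattern was the most like the mean of the members other than Gimap8 (r = 0.89).

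**Figure D4:**
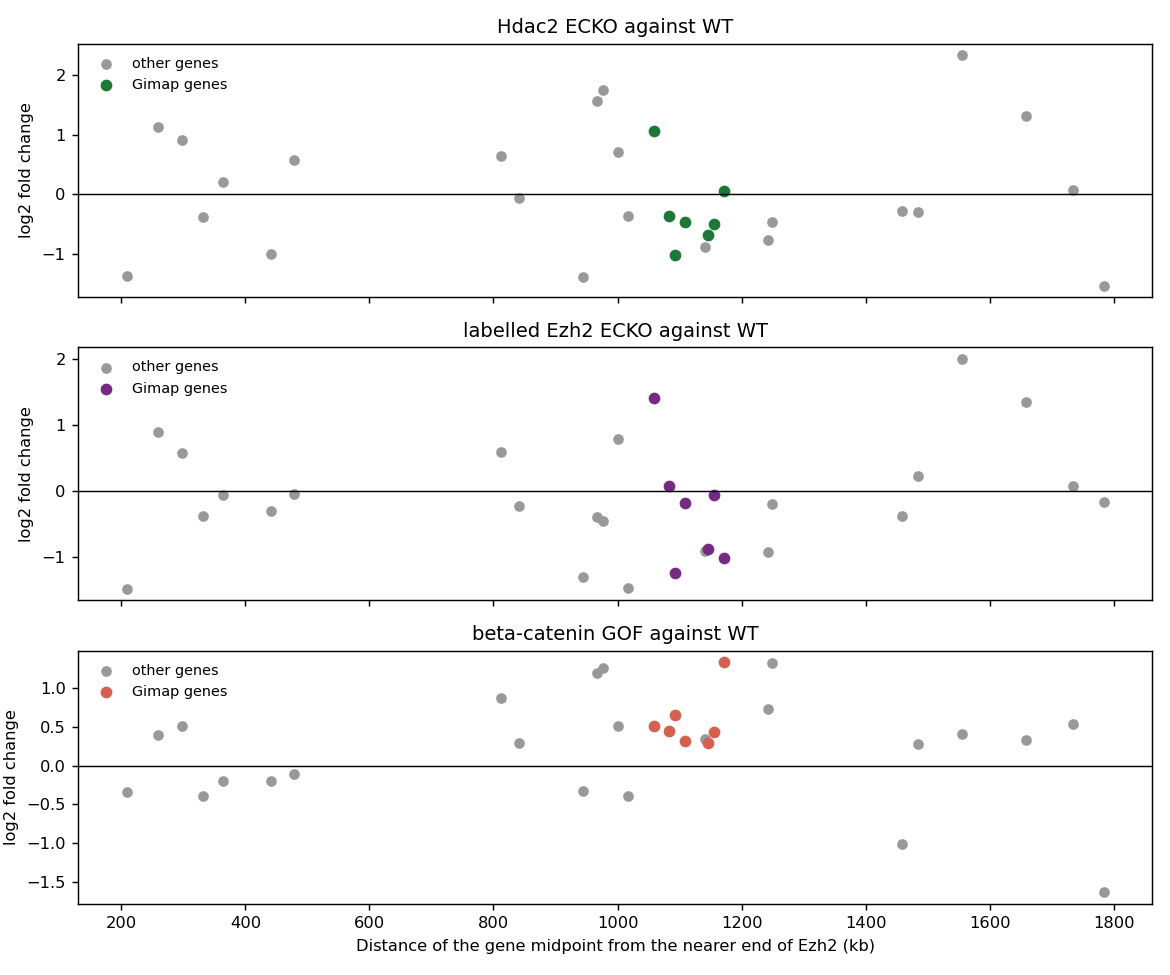
Log2 fold change against WT (y axis) of the tested genes between Ezh2 and the Gimap cluster and within 1000 kb of it, by distance of the gene midpoint from Ezh2 (x axis, kb), in the 3 mutant groups. Coloured points are the 7 tested Gimap genes and grey points the 23 other genes, which lie on both sides of 0 in each group.

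The genes through which GIMAP proteins are known to act, the Bcl2 family of apoptosis regulators and the Atg8 family of autophagosome proteins, were read from a list of 13. In Hdac2 ECKO, 9 of 13 were lower than WT (median −0.60 on the log2 scale), and 2 fell past the threshold of edgeR's test (5.38% of all genes): Gabarap (−1.32, adjusted p = 0.0338) and Map1lc3a (−1.68, adjusted p = 0.0496), both ubiquitin-like proteins that coat autophagosomes. In the Ezh2-labelled libraries 9 of 13 were lower, with a median of −0.51, and 0 passed (0.684% of all genes lower). In beta-catenin GOF the median was −0.12 and 0 passed (0% of all genes). The medians over all tested genes were 0.10, 0.05 and 0.01 in the 3 mutant groups, in the same order. The trend on gene length described above was not removed from these values.

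Interferon-inducible GTPases, which share the GTP-binding fold but not the cluster, were lower than WT for 13 of 13 tested members in all 3 mutant groups, with medians of −1.96, −2.63 and −2.70. In Hdac2 ECKO 4 of 13 fell past the threshold of edgeR's test (5.38% of all genes), with Igtp, Tgtp1 and Tgtp2 at the smallest p, and in the Ezh2-labelled libraries 1, Igtp, did so (0.684% of all genes). In beta-catenin GOF 0 of 13 and 0% of all genes passed. The WT libraries differed strongly among themselves here, with a summed level from 2023 to 29044 CPM, against 1017 to 2605 CPM in the libraries of the 2 groups labelled ECKO and 1091 to 1416 CPM in beta-catenin GOF. The Gimap genes had no such spread among WT libraries, where their summed level ran from 414 to 659 CPM.

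Because GIMAP genes are lymphocyte genes, markers of other cells were read in the same libraries. Of 21 lymphocyte markers in the table, 6 passed the filter and 0 of these were called by edgeR's test against WT, where 9.2% of all genes were called in Hdac2 ECKO, 1.03% in the Ezh2-labelled libraries and 0% in beta-catenin GOF. Their summed level was 9.99 to 12.2 CPM in WT, 8.60 to 13.6 in Hdac2 ECKO, 7.63 to 7.76 in the Ezh2-labelled libraries and 10.1 to 13.1 in beta-catenin GOF. Cd4 was at 0 in all 12 libraries, and the T cell receptor subunit gene Cd3e had at most 2 counts in any library. Other lymphocyte markers were present at low levels: Cd3d reached 54 counts and Lck 32 counts in a library, and Cd247, Cd79a and Zap70 were above 0 in all 12, with at most 130, 132 and 328 counts. Gimap6 was at 182 CPM or more in each library. The part of lymphocyte RNA in the Gimap levels was not tested.

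All 15 endothelial markers were detected, with a summed level of 21842 to 26454 CPM in WT, 17468 to 19292 in Hdac2 ECKO, 20312 to 24883 in the Ezh2-labelled libraries and 23096 to 25223 in beta-catenin GOF. In Hdac2 ECKO 1 marker, Egfl7, fell (adjusted p = 0.0342 in edgeR's test, 5.38% of all genes lower) and 1, the ETS factor Erg, rose (adjusted p = 0.0360, 3.82% of all genes higher), and 0 were called in the other mutant groups. By number, 9 of the 15 markers were above WT in Hdac2 ECKO and 6 below, with a median log2 fold change of 0.20. The median over all tested genes was 0.10. Each of the other mutant groups had 10 markers above and 5 below. Ly6c1 gave the largest part of the sum, with a mean of 12896 CPM for WT libraries but 8132 for those of Hdac2 ECKO. The sum correlated with the mean of the Gimap genes other than Gimap8 at r = 0.66 over the 12 libraries. How far Ly6c1 alone set this r, and the part of the sum in the Gimap differences, were not tested. Pericyte and smooth muscle markers were higher than WT for 12 of 12 genes in Hdac2 ECKO, and 4 rose past the threshold of edgeR's test (3.82% of all genes), with Myh11 (adjusted p = 0.0323), Pdgfrb (0.0338) and Cspg4 (0.0457) at the smallest p. They summed to 136 to 357 CPM there, against 73.3 to 135 in WT. In beta-catenin GOF 11 of 12 were higher than WT, 5 without overlap (6.83% of all genes) and 0 called, and they summed to 126 to 403 CPM. In the Ezh2-labelled libraries they summed to 69.9 to 84.9 CPM, with 7 of 12 higher. Platelet and erythroid markers summed to 36148 to 61418 CPM in WT, mostly from the hemoglobin genes. They summed to 407 to 21723 CPM in Hdac2 ECKO, 2532 to 6715 in the Ezh2-labelled libraries and 528 to 35413 in beta-catenin GOF. The tested platelet markers were mixed, none called. Itga2b was higher than WT in all 3 mutant groups and Pf4 in the 2 groups labelled ECKO, while Ppbp was lower in all 3. Alas2, of heme synthesis, fell in Hdac2 ECKO (−4.10, adjusted p = 0.0342 in edgeR's test, 5.38% of all genes lower). In the Ezh2-labelled libraries its log2 fold change was −4.09 (adjusted p = 0.0555). Myeloid and microglial markers summed to 28.5 to 38.8 CPM in WT, 8.53 to 33.5 in Hdac2 ECKO, 6.22 to 190 in the Ezh2-labelled libraries and 5.66 to 11.3 in beta-catenin GOF. Of 12 tested, 10 were lower than WT in Hdac2 ECKO, 7 in the Ezh2-labelled libraries and 11 in beta-catenin GOF, 6 of the latter without overlap (5.87% of all genes). Cd53, a leukocyte tetraspanin, was at 2.08 to 2.85 CPM in WT and at 0 in the 9 mutant libraries. It passed edgeR's test in Hdac2 ECKO (adjusted p = 0.0338, 5.38% of all genes lower). It also passed in the Ezh2-labelled libraries (adjusted p = 0.0478, 0.684% of all genes lower). Csf1r was higher there without overlap, at 3.63 to 8.26 CPM against 0.997 to 2.75 in WT, and was not called. In the same libraries S100a8 ran from 0.0648 to 79.3 CPM and S100a9 from 0 to 69.4 CPM. Astrocyte markers summed to 24.3 to 35.7 CPM in WT and 50.7 to 76.4 and 44.2 to 79.8 CPM in the groups labelled ECKO. In beta-catenin GOF they summed to 37.3 to 54.1 CPM, also above WT. Most of the sum was Gja1, at a mean of 25.9 CPM in WT and 49.9, 50.1 and 42.7 CPM in the mutant groups. Of 4 tested, 3 were higher than WT in each group labelled ECKO and 2 in beta-catenin GOF, and Gfap was lower in all 3. The astrocyte sum correlated with Gimap8 at r = 0.76. The part of all these cell types in the Gimap differences was not tested.

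**Figure D5:**
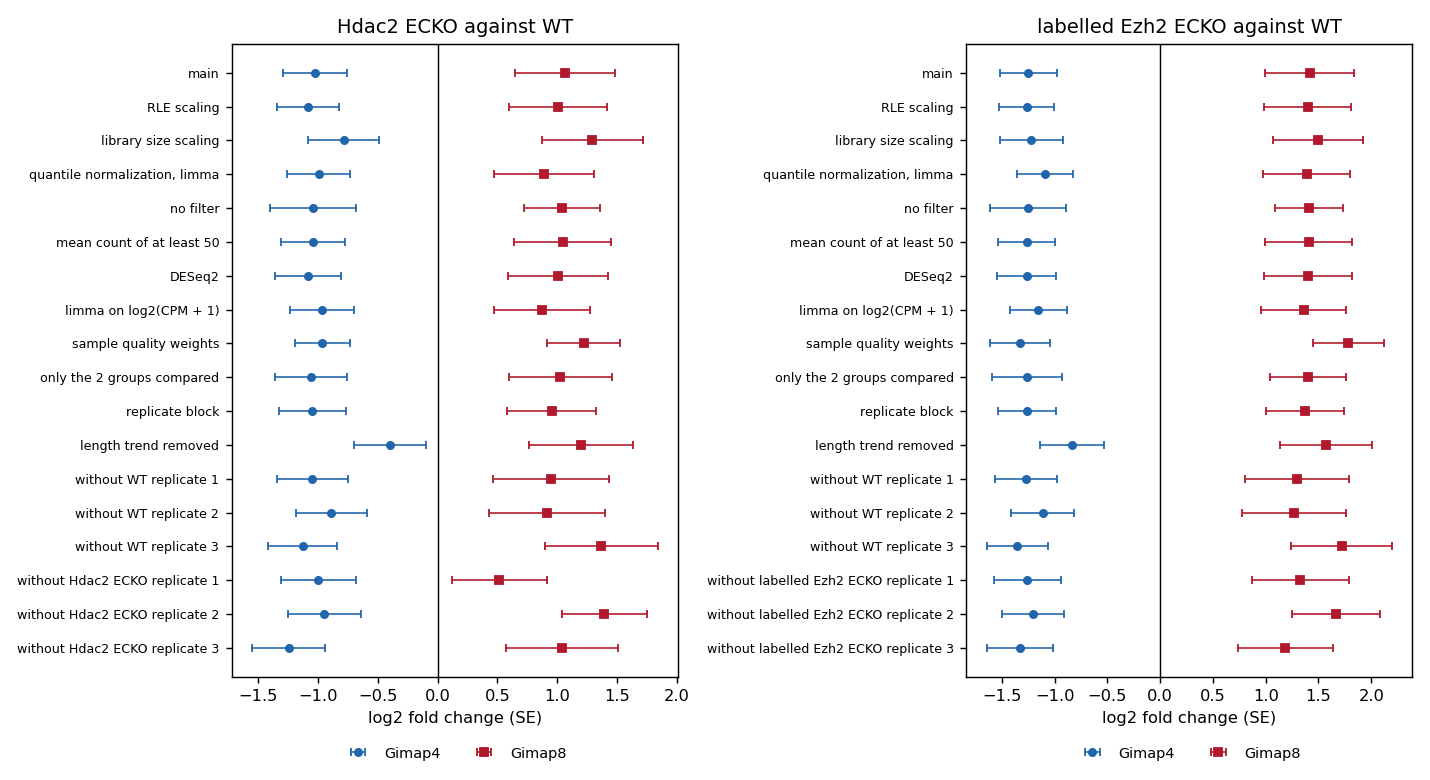
Log2 fold change against WT (x axis, points; bars are SE) of Gimap4 and Gimap8 in Hdac2 ECKO and in the Ezh2-labelled libraries as reported (labelled main) and under each alternative (rows). Gimap4 lies below 0 and Gimap8 above 0 in every row, and the length trend removal brings Gimap4 in Hdac2 ECKO nearest to 0, at −0.39.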

How the data were processed

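RNA of sorted cells was made into libraries with the SMART-Seq v4 PLUS kit and sequenced in pairs, per the labels' protocols. The deposited table holds whole-number counts per gene, with no unique molecular identifiers. Its title calls the counts normalized, but totals differ between libraries and even values are in excess, as when each read of a pair counts once, so they were analysed as deposited raw counts. The submitters' processing notes name mm10, FastQC, cutadapt, STAR, featureCounts and DESeq2, with no versions. Strandedness is not given in the sources used here.

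Genes averaging 10 counts or more were tested with edgeR 4.0.16 (quasi-likelihood test, TMM scaling, all 4 groups in 1 fit, Benjamini-Hochberg adjustment over 12577 genes, threshold 0.05) in R 4.3.3. Correlations used log2 CPM with a prior count of 2. The alternatives used DESeq2 1.42.0 and limma 3.58.1 among other choices. The test was tried on simulated data before use. All 8 members are named. Neighbours named are the nearest 2 tested on each side and any past the threshold against WT. The levels of Gm28053, which lies among the members, were added after they were seen. The 5 genes most like the members are named by Pearson r. Of each list, at most 3 past the threshold by smallest p are named, and defining markers at 0. Other list markers were named after their values were seen. The members and lists were chosen with earlier results of these data known. Positions of 98.35% of the table's genes equal GENCODE M21. Replicate numbers were not taken to pair the samples. Correlations of same-numbered deviations ran from −0.14 to 0.27, and in 0 comparisons were all 3 above 0.1. The highest was between replicate 2 of Hdac2 ECKO and replicate 2 of the Ezh2-labelled group.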

Additional observations from a re-analysis of the deposited data

Results flagged for a closer look

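The direct comparison of mutants found Gimap4 higher in beta-catenin GOF than in Hdac2 ECKO, by 1.68 on the log2 scale (adjusted p = 0.0328 in edgeR's test), and higher than in the Ezh2-labelled libraries, by 1.91 (adjusted p = 0.0128). The member was chosen with such values known, so these are descriptions, and 0.0477% and 0.0239% of all genes were called higher in these comparisons. The difference from Hdac2 ECKO was called in 1 of 6 fits that left out 1 library, the one without Hdac2 ECKO replicate 2 (adjusted p = 0.0387). That fit called 4.3% of all genes, and the others at most 0.0239%. The difference from the Ezh2-labelled libraries was not called without replicate 1 of that group (0.0616) or without beta-catenin GOF replicate 3 (0.0774).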

How the results depend on the processing

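The counts of Gimap genes past the threshold were 1 in Hdac2 ECKO against WT, 1 in the Ezh2-labelled libraries against WT, 0 in beta-catenin GOF against WT, 0 between the 2 groups labelled ECKO, and 1 and 1 in beta-catenin GOF against Hdac2 ECKO and against the Ezh2-labelled libraries. Below, counts are given in that order. They were the same under median-ratio scaling, quantile normalization, a mean count of at least 50 and limma. With scaling by library size they were 0, 0, 0, 0, 0 and 1; with no filter 2, 3, 0, 0, 2 and 2; with DESeq2 1, 2, 0, 0, 4 and 2; with sample quality weights 3, 3, 0, 0, 5 and 3; with only the groups compared 1, 0, 0, 0, 0 and 1; and with the length trend removed 0 in all 6. Leaving out 1 library at a time gave 0 to 3, 0 to 3, 0 to 0, 0 to 0, 0 to 2 and 0 to 2. Against WT, the count was 0 without WT replicate 1 or 2 and without replicate 1 or 3 of either group labelled ECKO. In those fits at most 0.00798% of all genes were called in Hdac2 ECKO and at most 0.0557% in the Ezh2-labelled libraries. The count was 3 without replicate 2 of either group labelled ECKO (17.6% and 18.5% of all genes). It was 2 in the Ezh2-labelled libraries without WT replicate 3 (9.04%). For beta-catenin GOF the count was 2 without replicate 2 of either group labelled ECKO (4.3% and 5.81% of all genes). Against Hdac2 ECKO it was 0 without Hdac2 ECKO replicate 1 or 3 or any beta-catenin GOF library (at most 0.0239% of all genes). Against the Ezh2-labelled libraries it was 0 without their replicate 1 or beta-catenin GOF replicate 3 (at most 0.0159% of all genes). The replicate block gave 1, 1, 0, 0, 1 and 1, so it changed no count of members. It raised the share of all genes called against WT, from 9.2% to 14.6% in Hdac2 ECKO. In the Ezh2-labelled libraries that share went from 1.03% to 4.26%. The numbers were not taken to pair the samples. Over all genes, leaving out 1 library moved the calls from 1157 to between 0 and 2220 in Hdac2 ECKO against WT. In the Ezh2-labelled libraries against WT it moved them from 129 to between 2 and 2328. The share of all genes called also differed by setting. For the groups labelled ECKO against WT it was 42.7% and 29.8% with sample quality weights, and 19.9% and 10.1% with DESeq2. With no filter it was 11.2% and 6.72%. For beta-catenin GOF against those groups it was 26.5% and 11.7%, 4.24% and 1.14%, and 4.81% and 1.76%, in the same order of settings. With library size scaling the groups labelled ECKO against WT had 14.5% and 0.239% of all genes called. With only the groups compared they had 11.7% and 0.135%, and with the length trend removed 4.74% and 0.819%. For beta-catenin GOF against those groups the shares were 0.0318% and 0.111%, 0.0716% and 0.0875%, and 0.00795% and 0.111%, in that order. Median-ratio scaling, quantile normalization and limma called 8.34% to 16.8% and 0.604% to 2.77% against WT. Of 708 log2 fold changes of single members under an alternative, 687 differed from the reported value by less than the spread between replicates (1 SD), 21 by more, and 0 turned the sign of a called value. The cause of these changes was not tested. Depth limits Gimap3 and Gimap7, at counts of at most 79 and 18.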
